A study of Mus musculus with 2 samples.

Results

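Of 66311 gene models that Cufflinks, a program that assembles transcripts from aligned reads, had built in mouse embryonic liver, 915 lay outside every annotated gene and were measurable in both replicates. A model was taken when its span shared no base with any of 37310 ENSEMBL gene spans on either strand of the mm9 genome. Its deposited RPKM, a read density scaled by model length and library depth, also had to be at least 0.1 in each of 2 replicates. The members were thus chosen by their RPKM in both replicates, and the level is given here as a description. Among all models, 20.6% (13636) reached that minimum, and 12721 of these lay in genes. A further 19212 models lay outside genes but below the minimum, and these and the models in genes serve as the reference unless another is named.

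The data came from 2 stranded, paired-end libraries of long polyadenylated RNA prepared from embryonic mouse liver (strain C57BL/6J, age 14 day), with littermates of both sexes pooled. The labels name no treatment and no other genotype, so both libraries form 1 group, and no comparison between conditions could be made. They are labelled as biological replicates 1 and 2 but share 1 donor entry, so the spread between them may be partly technical. The libraries held 100477392 (replicate 1) and 154601605 (replicate 2) expected counts on genes of the mm10 build. The mm9 tables number their replicates without tying them to a library, so their values are called RPKM1 and RPKM2 here. Markers of the labelled tissue were abundant: the medians of the fetal hepatocyte list were 263 and 295 TPM (a transcript's length-scaled share of the library) in libraries 1 and 2. Those of the erythroid list were 203 and 257 TPM, while a striated muscle list stood at 3.66 and 0.125 TPM, a difference whose part in the values below was not tested.

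RNA from outside annotated genes is known to come from several kinds of locus. Long noncoding RNAs are spliced and polyadenylated like messenger RNAs but encode no known protein. Processed pseudogenes are copies of messenger RNAs that were reverse-transcribed into the genome, so they lack introns and can be almost identical to the gene they derive from. Promoters are often transcribed in both directions, and primary transcripts of microRNAs extend well beyond the hairpin that is annotated as the gene. The liver of this stage houses both hepatocytes and the main site of blood formation.

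Sequences of the members themselves could not be read, because no mm9 genome was used here. Sequences of genes beside them are shown for 3 settings described below. The first is a pseudogene or other copy that a later annotation, GENCODE M21, places between the same flanking genes and on the same strand as a member. Each is set above its closest coding transcript in a stretch of 90 bases of the coding part, 5′ to 3′, with differing bases in capitals. The stretch with the most differences was chosen, so these pairs look less alike than the whole transcripts do.
Gm8797: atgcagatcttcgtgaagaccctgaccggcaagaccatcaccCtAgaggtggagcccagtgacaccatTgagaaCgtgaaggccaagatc
Ubb: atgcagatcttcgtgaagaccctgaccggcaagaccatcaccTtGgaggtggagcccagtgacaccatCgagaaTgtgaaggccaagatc
Gm4739: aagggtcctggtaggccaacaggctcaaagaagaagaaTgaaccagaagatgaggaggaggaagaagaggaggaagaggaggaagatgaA
Hmgb2: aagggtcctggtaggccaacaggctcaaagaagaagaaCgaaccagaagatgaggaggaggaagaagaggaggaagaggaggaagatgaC
Gm4332: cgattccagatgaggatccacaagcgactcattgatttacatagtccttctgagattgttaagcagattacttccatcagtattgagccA
Rps20: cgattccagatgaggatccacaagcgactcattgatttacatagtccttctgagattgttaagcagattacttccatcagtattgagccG
Gm2225: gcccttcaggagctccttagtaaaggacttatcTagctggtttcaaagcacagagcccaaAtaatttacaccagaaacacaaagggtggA
Rps25: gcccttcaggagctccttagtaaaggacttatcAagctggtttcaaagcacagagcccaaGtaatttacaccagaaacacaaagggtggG
Ubb encodes a polyubiquitin, Hmgb2 a chromatin protein with HMG boxes, and Rps20 and Rps25 proteins of the small ribosomal subunit. The pairs differed at 4, 2, 1 and 3 of the 90 bases.

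The second setting is the promoter of a gene that a member faces head to head, that is, on the opposite strand just before the gene's start. The 150 bases before the gene's start are shown from RefSeq, build GRCm38.p6, 5′ to 3′ on the gene's strand, with each CG dinucleotide in capitals.
Hand2, chr8:57320833-57320982, plus strand: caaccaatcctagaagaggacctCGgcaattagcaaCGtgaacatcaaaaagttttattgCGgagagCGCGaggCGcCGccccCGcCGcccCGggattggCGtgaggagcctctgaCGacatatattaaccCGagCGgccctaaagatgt
Peg3, chr7:6730420-6730569, minus strand: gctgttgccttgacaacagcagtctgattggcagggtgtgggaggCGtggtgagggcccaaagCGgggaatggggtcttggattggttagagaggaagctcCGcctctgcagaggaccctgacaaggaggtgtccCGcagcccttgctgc
Med26, chr8:72548311-72548460, minus strand: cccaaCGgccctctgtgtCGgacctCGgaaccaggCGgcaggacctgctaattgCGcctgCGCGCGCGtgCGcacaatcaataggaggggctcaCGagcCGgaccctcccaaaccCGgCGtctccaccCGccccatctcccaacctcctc
The windows hold 14, 4 and 15 CG. Hand2 encodes a transcription factor of heart and limb development, Peg3 an imprinted zinc finger protein, and Med26 a subunit of the Mediator complex.

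The third setting is a microRNA gene as nearest neighbour. Mature sequences are from RefSeq, with the seed (bases 2 to 8 from the 5′ end) in capitals.
mmu-miR-802-5p: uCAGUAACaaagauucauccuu
mmu-miR-30c-5p: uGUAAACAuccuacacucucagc
mmu-miR-345-5p: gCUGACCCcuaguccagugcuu
The 3 seeds differ from one another. Of 8 members with a microRNA as nearest gene within 10 kb, 4 had a neighbour with a mature sequence in the RefSeq table.

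Most members were weak, and a few were very strong. The median of the mean RPKM was 0.27, with quartiles of 0.166 and 0.664, against 0.371 for the 12721 models in genes. Of the 915 members, 344 had a mean RPKM below 0.2, 404 from 0.2 to below 1, 129 from 1 to below 10, and 38 at least 10. Together the members held 7.87% of the summed RPKM1 and 7.35% of the summed RPKM2 of all models. The 3 highest members made up 43% and 37% of the members' own sums, and the 12 highest 63.1% and 59.2%. Nearest to the minimum on the inside were CUFF.10888 on chromosome 3 (RPKM1 0.124782, RPKM2 0.100014) and CUFF.27652 on chromosome 6 (0.100042 and 0.110086). Just outside it were CUFF.6298 on chromosome 2 (0.15384 and 0.099976) and CUFF.66266 on chromosome 17 (0.106806 and 0.099874).

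RPKM2 exceeded RPKM1 in 713 of 915 members (77.9%), with a median ratio of 1.24, and in 85.7% of the models in genes, with the same median ratio of 1.24. The members varied more between the replicates: the SD of log2(RPKM2 + 0.1) minus log2(RPKM1 + 0.1) was 0.39 for members and 0.31 for models in genes. The replicates lay within 2-fold of each other for 90.8% of members and 95.9% of models in genes. Among the 167 members with a mean RPKM of at least 1, RPKM2 was higher in 151.

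**Figure D1:**
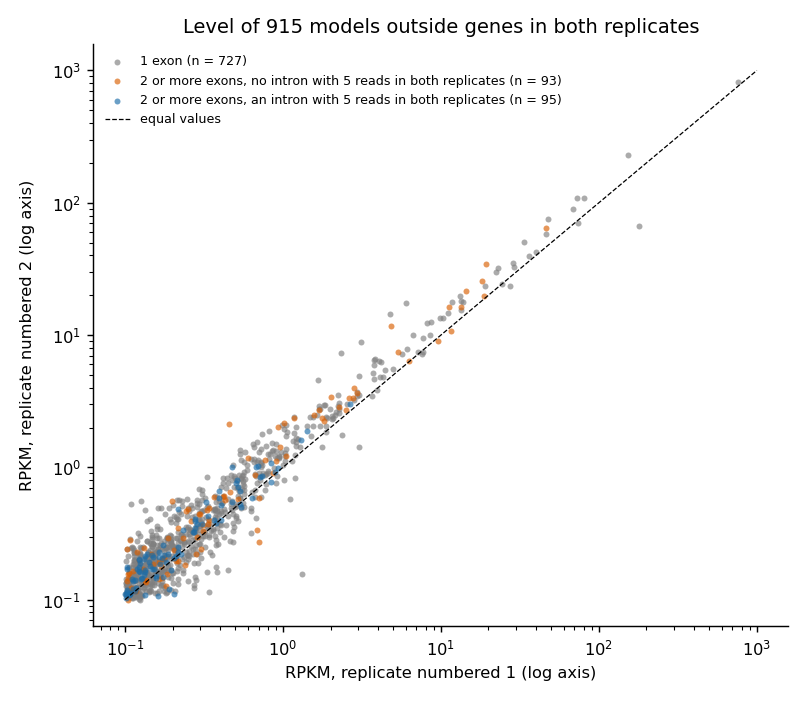
Each point is 1 of the 915 members, with RPKM1 on the x axis and RPKM2 on the y axis, both logarithmic, colored by exon structure; the dashed line marks equal values. Most points lie slightly above the line, and the single far point below it at high level is CUFF.24827.

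The highest member, CUFF.10948 on chromosome 3 (5860319 to 5860886, plus strand), had an RPKM1 of 758 and an RPKM2 of 813 (mean 785 ± 38.9, SD, n = 2). It is 568 bases long with 1 exon, and its nearest gene, Pex2, which encodes a peroxisome biogenesis factor, lay 284079 bases away. The next, CUFF.26343 on chromosome 6 (66825307 to 66825822, minus strand), had 154 and 230 RPKM. CUFF.24827, also on chromosome 6 (3150768 to 3151737, plus strand), had 180 and 66.3 RPKM. It was the only one of the 12 highest members that was more than 2-fold lower in replicate 2, and CUFF.72092 on chromosome 18 (74.2 and 69.7) was the only other one of them that was lower in replicate 2. CUFF.42159 on chromosome 10 (25827555 to 25828112, plus strand) had 80.6 and 110 RPKM, and CUFF.13874 on chromosome 3 (119412433 to 119412718, plus strand) had 72.3 and 109. The other members among the 12 highest ranged from 41.2 to 78.7 in mean RPKM. Of these 12, 11 consisted of 1 exon, and none was longer than 1170 bases.

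The deposited contigs, stretches of continuous read coverage over both replicates with a level on their own scale, covered most members. At least 50% of the length lay in same-strand contigs for 85.6% of members (783), as for 85.6% of models in genes, and for 79% of the other models outside genes. The contig levels of the strongest members fell far apart. Of the 38 members with a mean RPKM of at least 10, 18 overlapped a contig with a level of at least 10, and 12 overlapped none that reached 1. CUFF.10948 lay in a contig of level 5130, CUFF.26343 in one of 1010 and CUFF.13874 in one of 829. By contrast, CUFF.68128 on chromosome 17 (39773626 to 39774125, minus strand) had 47.8 and 75.1 RPKM but contigs of at most 0.227, and CUFF.72092 overlapped no contig at all. The scaling of the contig level is not given in the sources used here, so contig levels and these ratios are compared only between models.

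**Figure D2:**
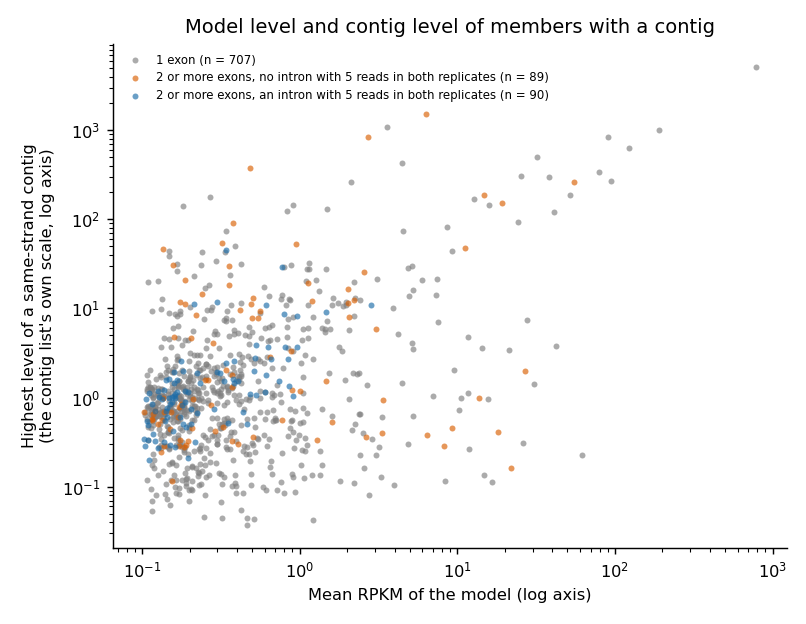
The mean RPKM of each member that overlaps a same-strand contig is plotted against the highest level among those contigs, both axes logarithmic, colored by exon structure. The points at high RPKM spread from CUFF.10948 at level 5130 down to members such as CUFF.68128 at 0.227.

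The members were short. The median span was 602 bases, with quartiles of 302 and 1572, while the models in genes spanned a median of 15960 bases and the other models outside genes 766. The exon table lists exons in pieces: 50.2% of members (459) had 1 exon row. Of 4282 gaps between rows of a transcript 82.6% were 1 to 4 bases long, whereas the shortest junction in the junction list was 31 bases. With gaps under 50 bases joined, a step chosen after the data were seen, 727 members (79.5%) had 1 exon, against 25.3% of models in genes and 92% of the other models outside genes. Of the remaining 188 members, 107 had 2 exons, 30 had 3, 27 had 4, and 24 had 5 or more, up to 12. Exon numbers below are those after joining.

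Spliced reads divided the 188 multi-exon members into 2 sets of similar size and unlike median RPKM. How the RPKM counts spliced reads is not given in the sources used, so this difference may lie in the measure. A member was called spliced when at least 1 of its introns matched a deposited junction, at both ends and on its strand, with at least 5 reads in each replicate. This held for 95 of 188 (50.5%), compared with 95.7% of multi-exon models in genes and 9.13% of the other multi-exon models outside genes. The other models lie below the RPKM minimum by the rule, which makes 5 reads in each replicate harder to reach. An intron with any junction read was found for 87.8% of multi-exon members, 99% of those in genes and 85.4% of the others. The members thus stood close to the other models by that looser measure. The 95 spliced members had a median mean RPKM of 0.188 and none exceeded 2.84, and their median span was 11950 bases. The 93 others reached 55.4 RPKM, with a median of 0.372 and a median span of 10680 bases. Of the 188, 60 had no intron with more than 2 reads over both replicates. None of the 8 multi-exon members with a mean RPKM of at least 10 was spliced by this measure, and 3 of the 25 from 1 to below 10 were.

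**Figure D3:**
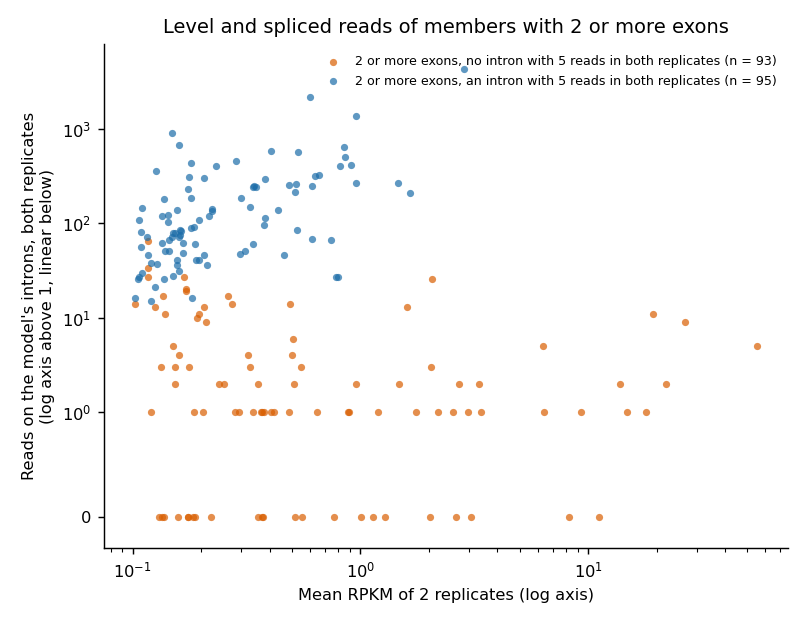
Each point is 1 of the 188 members with 2 or more exons, with the mean RPKM on a logarithmic x axis and the reads on its introns, summed over both replicates, on the y axis (logarithmic above 1, linear below). The spliced members lie at 2.84 RPKM or below, and the 8 members of at least 10 RPKM carry 11 reads or fewer.

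The most read introns belonged to CUFF.51338 on chromosome 12 (32747339 to 32809329, minus strand), with 1709 and 2622 junction reads, 7 exons and 2.65 and 3.02 RPKM. It lay 1177 bases before the start of Prkar2b, on the same strand. Prkar2b encodes a regulatory subunit of cAMP-dependent protein kinase and had 35.5 and 44.3 TPM. No junction with 5 reads in each replicate joined the model to an annotated gene. Within its span lay CUFF.51340, CUFF.51341 and CUFF.51342, single-exon members of the same strand with 1.11 to 2.06 RPKM. CUFF.40074 on chromosome 9 (83134118 to 83148200, minus strand) had 783 and 1389 junction reads over 5 exons at only 0.531 and 0.668 RPKM. Its nearest gene was Hmgn3, a nucleosome-binding protein gene, 93825 bases away on the same strand. CUFF.31586 on chromosome 7 (97191991 to 97195549, minus strand) had 548 and 846 reads over 4 exons at 0.835 and 1.08 RPKM. All of it was also covered by contigs of the opposite strand. These 3 members thus carried many spliced reads in each replicate at a deposited RPKM far below that of the strongest members. The counting step behind the RPKM is not named in the sources used. Whether the RPKM of spliced models counts all their junction reads is therefore unknown.

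Further spliced members lay at very different distances from genes. CUFF.42092 on chromosome 10 (309 and 590 junction reads) lay 1877 bases after the end of Epb41l2, a membrane skeleton protein gene, on the opposite strand. CUFF.589 on chromosome 1 had 208 and 475 reads, and CUFF.63611 on chromosome 16 had 265 and 384 reads in a span of only 944 bases, 488 bases from Rogdi on the opposite strand. CUFF.73714 on chromosome 19 (40831790 to 40856185, plus strand) had the most exons, 12, with 153 and 257 junction reads. It lay 15697 bases after Entpd1, which encodes an enzyme that hydrolyzes extracellular nucleotides, and a single later gene of its strand, the protein-coding Cc2d2b, is annotated between its flanking genes. CUFF.58886 on chromosome 14 and CUFF.13414 on chromosome 3 had 7 exons each, with 153 and 263, and 175 and 281 junction reads. CUFF.45867 on chromosome 11 spanned 203867 bases with 6 exons and 93 and 139 reads. CUFF.30439 on chromosome 7, also of 6 exons, had 116 and 240.

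The longest spans had almost no spliced reads. CUFF.60131 on chromosome 14 spanned 429541 bases with 3 exons and 1 junction read in each replicate, at 2.94 and 3.67 RPKM. CUFF.51652 on chromosome 12 (298849 bases), CUFF.61739 on chromosome 15 (242430 bases) and CUFF.72104 on chromosome 18 (241409 bases) had no junction read on their introns. Among the highest multi-exon members at least 10 kb from genes, CUFF.71271 on chromosome 18 spanned 149069 bases with 1 and 10 junction reads, and CUFF.66297 on chromosome 17 spanned 121438 bases with 1 and 0. Same-strand contigs covered 0.555% and 0.807% of these 2 spans. CUFF.14332 (1 and 4 reads), CUFF.52947 (3 and 6), CUFF.11007 (0 and 2) and CUFF.32674 (1 and 0) had spans from 674 to 7947 bases and were as poor in junction reads.

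Junctions with at least 5 reads in each replicate tied 7 of the 915 members to a gene on the same strand. Of these, 3 were tied to Zfp825 on chromosome 13. They were CUFF.56258 with 43 and 78 such reads, CUFF.56273 with 17 and 24, and CUFF.56245 with 8 and 11. CUFF.67047 was tied to Zfp995 (10 and 7 reads), CUFF.55833 to Zfp934 (9 and 6), CUFF.18897 to Zfp987 (10 and 15) and CUFF.22340 to 4930522L14Rik (5 and 6). Thus 6 of the 7 were tied to genes named as zinc finger proteins, a large family with many close copies. Whether reads were misassigned among such copies was not tested. Among all members, the nearest gene had a Zfp symbol for 2.4%, close to the 2.57% of the other models outside genes. These 7 were singled out after their values were seen. The tied gene was the nearest gene for 2 of the 7. How often other models are tied to genes was not counted.

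A later annotation was read by gene order alone, since its build differs from that of the files. For 890 members, both flanking ENSEMBL genes kept their order in GENCODE M21, and 602 of these (67.6%) had at least 1 later gene of the same strand, small RNAs aside, between the flanks. Among the other models outside genes that share was 43.9%. The width of the intervals was not compared, and members lay farther from the nearest gene (median 13490 bases, other models 7554). A wider interval can hold more later genes, so the difference between these shares cannot be called particular to members. Where the interval held exactly 1 later gene on either strand, it was on the member's strand in 74.7% of 194 cases, and on the model's strand in 59% of 3593 cases for the other models. Gene order shows a shared interval, not that member and later gene are the same locus.

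Exactly 1 later gene of the same strand was found for 252 members, and it was a pseudogene for 165 of them (65.5%), a long noncoding gene for 74 and protein-coding for 13. For the other models outside genes with 1 such gene, pseudogenes made up 37.8%. Long noncoding genes made up 57.6% for the other models and 29.4% for members. By structure, the later gene was long noncoding for 17 of the 27 spliced members with 1 such gene (63%), and a pseudogene for 144 of 206 single-exon members (69.9%) and 15 of 19 multi-exon members that were not spliced (78.9%). This split was not made for the other models, of which 92% had 1 exon, so a link of structure to later gene type was not tested.

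Most members with a later pseudogene had one that was a close copy of an expressed gene. For 129 of the 165 members (78.2%) the pseudogene was at least 90% identical to a known coding transcript over at least 80% of their length, with a median identity of 96.8%. Some members shared a pseudogene: the 165 stood beside 156 different pseudogenes, and the 129 beside 122 with 104 different closest genes. Among the other models the share was 37.5%. The closest coding gene had at least 1 TPM in both libraries for each of the 129 members and for 93.2% of the other models. Over ENSEMBL genes of all types, coding or not, the share was 33.9%. At least 100 TPM was reached for 57.4% of the 129 (74), beside 55.4% for the other models. The shares thus lay farther apart for the likeness of the copy than for the level of the coding gene, though neither difference was tested. The closest gene was a ribosomal protein gene for 31 of the 129 members (24%) and for 20.9% of the other models. Reads from an expressed gene and from a near-identical copy can be assigned to either. The level of any member that is such a copy is therefore uncertain. Whether members are these copies, and whether reads were misassigned, was not tested.

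The sequence pairs printed above belong to 4 of the 12 highest members. Gm8797 shared the interval of CUFF.10948 and was 98.2% identical to Ubb over 384 aligned bases (78.2% of its length), and Ubb had 876 and 968 TPM. Gm8797, annotated as protein-coding, had 1.26 and 2.65 TPM itself. The same interval also held a further member, CUFF.10947, with 29.2 and 32.5 RPKM. Gm4739 (beside CUFF.42159) was 99.7% identical to Hmgb2, with 233 and 213 TPM, and Gm4332 (beside CUFF.13874) was 99.7% identical to Rps20, with 559 and 503 TPM. Gm2225 (beside CUFF.35488) was 98.7% identical to Rps25. Of the 12 highest members, 6 had exactly 1 later gene of their strand, and for 5 of these it was a pseudogene at least 90% identical to a coding transcript over at least 80% of its length. Gm8797 was the other.

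Further copies beside high members were annotated as pseudogenes. Gm4617, beside CUFF.14332 (46.5 and 64.2 RPKM), was 99.1% identical to Ptma, a chromatin-associated acidic protein gene with 1771 and 1362 TPM, and had 11.2 and 8.16 TPM itself. Gm8942, beside CUFF.44577 (46.4 and 57.6 RPKM), was 97.5% identical to Rps24. Gm5905, Gm3226 and Gm5469, beside CUFF.33264, CUFF.57463 and CUFF.61455, were closest to Rps9, Tuba1b and Hnrnpa3. Gm20281, beside CUFF.2374 (28.8 and 35.3 RPKM), had a less expressed closest gene, Lyrm2, with 24.7 and 22.3 TPM at 94% identity.

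**Figure D4:**
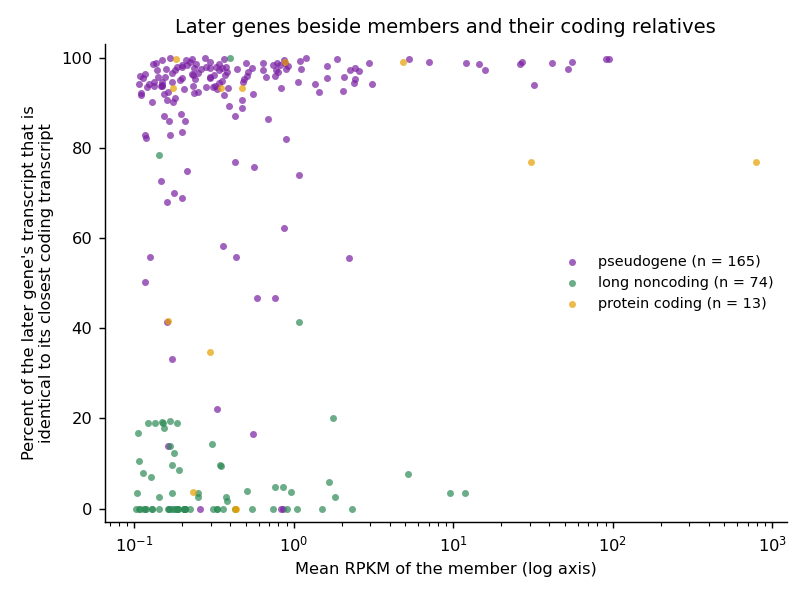
For the 252 members with exactly 1 later gene on their strand, the mean RPKM (logarithmic x axis) is plotted against the percent of the later gene's transcript that is identical to its closest coding transcript, with 0 where there was no match. Pseudogenes, of which 129 are at least 90% identical over at least 80% of their length, crowd at the top, and most of the 74 long noncoding genes lie near 0.

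Where the later gene was long noncoding and measured in the mm10 tables, its own level could be set beside the member. AU020206, beside CUFF.31160 on chromosome 7 (0.935 and 0.983 RPKM, 109 and 162 junction reads), had 11.9 and 13 TPM. 3300005D01Rik, beside CUFF.66389 on chromosome 17 (0.205 in both replicates, 98 and 205 junction reads), had 3.41 and 3.73 TPM, and D930016D06Rik, beside CUFF.22005 on chromosome 5 (0.335 and 0.427 RPKM), had 3.37 and 3.59. TPM and the RPKM of the models are on different scales, so these levels are not compared. A measured single later gene of any type reached at least 0.1 TPM in both libraries for 33 of 83 members (39.8%) and for 25.3% of the other models. Within the members this held for 13 of 29 with a long noncoding gene and 13 of 46 with a pseudogene (28.3%). The medians over those 46 were 0.005 and 0 TPM in libraries 1 and 2, and Gm4617, named above, was the highest of them. The median of the 29 long noncoding genes was 0.01 TPM in both libraries, so the 3 named here lay far above it.

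Distances to known genes were wide. The median distance to the nearest gene was 13490 bases, from 3 to 669547, and 42.4% of members (388) lay within 10 kb of a gene, against 56.4% of the other models outside genes. Farthest away were CUFF.60463 on chromosome 14 (669547 bases), CUFF.53103 on chromosome 12 (653350 bases), CUFF.72092 on chromosome 18 (651229 bases) and CUFF.27521 on chromosome 6 (622707 bases). The nearest gene was protein-coding for 521 members and a processed pseudogene for 90, and for 123 its type was not matched. These types were not counted for the other models, so the counts cannot be called particular to members. The 388 near members lay on the strand of the nearest gene in 58% of cases, which is close to the 58.7% of the other models.

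Side and strand were shared out differently among members and other models, a difference that was not tested. Of 388 near members, 33.5% followed the end of a gene on its strand, 24.5% preceded its start on its strand, 23.2% preceded the start on the opposite strand and 18.8% lay after the end on the opposite strand. For 10834 other models the shares were 42.1%, 16.5%, 28% and 13.3%. The nearest gene had at least 1 TPM in both libraries for 46% of near members, against 33.9% of ENSEMBL genes of all types. This share was not counted for the other models outside genes, so it cannot be called particular to members. That share was 60% for members before the start on the opposite strand (51 of 85) and 50% before the start on the same strand (40 of 80). After the end it was 37.8% on the same strand (42 of 111) and 36.1% on the opposite strand (22 of 61).

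**Figure D5:**
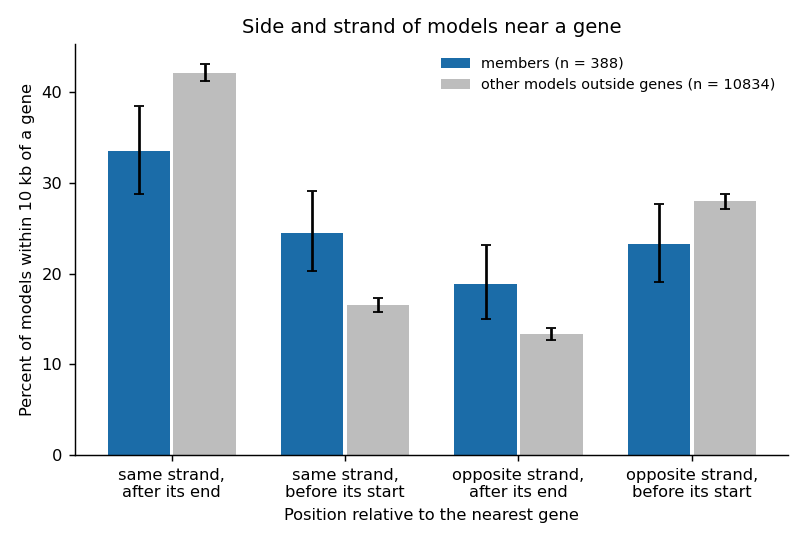
Bars give the percent of models within 10 kb of a gene in each position relative to it, for 388 members and 10834 other models outside genes; error bars are exact 95% binomial intervals that cover counting of models only. Members had a smaller share after the gene's end on its strand (33.5% against 42.1%) and a larger share before its start on its strand (24.5% against 16.5%).

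Within 1 kb, 29 members stood head to head with a gene. Their median level was 0.159 RPKM and their median distance 135 bases, 11 had 2 or more exons, and 10 of these were spliced. CUFF.34767 on chromosome 8 (59783065 to 59799669, minus strand) began 110 bases from Hand2, with 4 exons, 108 and 147 junction reads, and 0.391 and 0.583 RPKM, while Hand2 had 1.88 and 1.83 TPM. CUFF.29264 on chromosome 7 (6683326 to 6722742, plus strand) began 193 bases from Peg3, with 78 and 106 junction reads and 0.138 and 0.222 RPKM beside 20.5 and 19.8 TPM of Peg3. CUFF.35367 on chromosome 8 stood 82 bases from Med26 with 28 and 43 junction reads. CUFF.15019 on chromosome 4 lay 613 bases from Ccne2, the gene of a cyclin of the S phase entry, with 96 and 197 junction reads, and Ccne2 had 18.1 and 22.3 TPM. CUFF.74220 on chromosome 19 lay 6 bases from Gpam, which encodes an enzyme of triglyceride synthesis, with 32 and 50 reads. Canx, an endoplasmic reticulum chaperone gene at 135 and 120 TPM, had CUFF.46784 at 214 bases. Of 25 such neighbour genes with a value, 22 had at least 1 TPM in both libraries, a share not counted for the other models.

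The promoter windows of these genes were rich in CG beside those of all genes. For 17 of the 29 neighbours a RefSeq window of 300 bases (250 before to 50 after the start) was matched by symbol, with a median of 30 CG and a range of 4 to 47. Over 27025 genes the median was 7, with quartiles of 3 and 21, and 16 of the 17 exceeded that median. The letters TATAAA, searched on both strands, stood in none of the 17 windows and in 14.2% of all. The reference takes genes of any level, and neither count was made for expressed genes or for genes that other models face. The CG and TATAAA counts therefore cannot be called particular to promoters beside members. These are counts of letters and say nothing of which factor binds there.

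Of the 8 members near microRNAs, 7 had a mean RPKM below 1. The other, CUFF.65987 on chromosome 16 (93363550 to 93365960, minus strand), had 1.43 and 1.88 RPKM, 2 exons and 68 and 140 junction reads, and lay 4004 bases from Mir802 on the opposite strand, with no contig of its own strand. The single later gene of its strand in its interval is the noncoding 1810053B23Rik, with 2.09 and 2.45 TPM. On chromosome 1, CUFF.535 (0.176 and 0.276 RPKM) and CUFF.537 (0.214 and 0.295 RPKM) followed Mir30c-2 on its strand at 9241 and 13480 bases. CUFF.53474 on chromosome 12 (0.147 and 0.19 RPKM, 3250 bases long) followed Mir345 on its strand at 3126 bases. CUFF.75773 (0.202 and 0.16 RPKM) lay 385 bases before Mir1906-2 on its strand, a microRNA whose mature sequence is not printed above.

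Of the 388 members within 10 kb of a gene, 1 (0.258%) had a gene of 8 marker lists as its nearest, against 81 of 10834 other models (0.748%). With 1 member this share says little. The lists, chosen with earlier results of these data known, cover liver and blood cell types and striated muscle. The member near a gene of the fetal hepatocyte list, CUFF.12437 on chromosome 3 (82840999 to 82842920, minus strand), lay between Fga and Fgb, which encode chains of fibrinogen, 2962 bases after the end of Fga on the opposite strand. It had 2 exons, 5 and 11 junction reads, and 0.101 and 0.103 RPKM, while Fga had 184 and 198 TPM.

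Some members came in groups. With members of a strand joined over gaps of up to 5 kb, the 915 members formed 837 loci, of which 57 held 2 or more members and 15 held 3 or more. How often other models group was not counted. The locus with the most members held 5 on chromosome 19 (29144096 to 29153039, plus strand), between Ak3 and Rcl1, each with 0.105 to 0.19 RPKM, and 3 more members followed on the same strand up to 29172964. Rcl1, a ribosomal RNA processing gene, had 24.6 and 31.2 TPM. On chromosome 12, CUFF.51338 and the 3 members within its span formed a locus of 4. Members of such a locus may share reads of 1 transcript and are not independent of each other.

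Several of the largest shifts between replicates lay in 1 neighbourhood. Among members with a mean RPKM of at least 1, CUFF.28271 (2.32 and 7.36 RPKM) and CUFF.28276 (4.77 and 14.4) on chromosome 6 and CUFF.4195 on chromosome 1 (0.453 and 2.11) had the largest ratios of RPKM2 to RPKM1. CUFF.28271 lay between Klrb1c and Klrb1b, genes of lectin-like receptors of natural killer cells, and CUFF.28276 between Klrb1b and BC035044. CUFF.28279, beside CUFF.28276, had a similar ratio (6.04 and 17.4 RPKM), while CUFF.28270 and CUFF.28277 in the same intervals had ratios of 1.69 and 1.4. In the other direction stood CUFF.24827 (180 and 66.3), CUFF.33541 on chromosome 8 (3.03 and 1.42) and CUFF.74938 on chromosome X (1.20 and 0.835). With 1 value per replicate these ratios have no error of their own, so none was tested.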

How the data were processed

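Liver RNA of 1 group, 2 libraries, was analysed from the deposited tables, and the members and gene lists were chosen with earlier results of these data known. Model and gene RPKM values on mm9 were deposited by the authors for 2 numbered replicates, with an irreproducibility value that was used in 1 alternative. No aligner, Cufflinks version or counting step is named in the sources used. Where both tables measure 1 gene and its model alike (2308 pairs), the gene table's RPKM was a median 3.95 (RPKM1) and 4.15 (RPKM2) times the model table's, so levels were compared within the model table only. Junction counts were deposited as whole reads per junction, contig signal as 1 level over both replicates. Expected count and TPM values of mm10 genes were deposited by the authors, per the file headers and the text beside them with the GENCODE M4 annotation.

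Overlap needed 1 base, and each ENSEMBL gene, listed in 2 lines, was used once. Exon rows under 50 bases apart were joined. Symbols came from GENCODE M21 for 32620 of 37310 ENSEMBL genes. Later genes are M21 genes without an ENSEMBL identifier of the mm9 table, and their longest transcripts were aligned to 55900 coding transcripts with BLAST 2.17.0 (sense strand, E value of at most 1e-10). Named members were set by rule: by level (12), exons (6), span (4), junction reads (6), level among multi-exon members at least 10 kb from genes (6), distance (4), replicate ratio (3 each way), marker neighbours and nearness to the minimum (2 inside, 2 outside). Members named for a facing promoter, a microRNA, a junction to a gene, a locus or a later gene were chosen after their values were seen. With 1 group no test was made. Interval functions were tested on simulated data in Python 3.11.15.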

Additional observations from a re-analysis of the deposited data

How the results depend on the processing

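No paired analysis was possible because there is 1 group. An irreproducibility limit of 0.1 tested nothing, since no member exceeded 0.037. Excluding by same-strand genes alone put 55.7% within 10 kb of a gene (main 42.4%), and 33.9% of near members on its strand (main 58%). The models this adds overlap a gene of the opposite strand, so both shifts follow from the setting itself. With minima of 0.05 and 1 RPKM the members numbered 1583 and 140, with median levels of 0.145 and 3.30 RPKM. At 0.05 the median length was 673 bases, 43% of multi-exon members had a junction (main 36.2%, exon rows as listed), and the spread was 0.369 (main 0.39). At 1, 36.4% lay within 10 kb and 76.5% of near members were on the gene's strand. With ENSEMBL exons in place of gene spans there were 2858 members (median level 0.227, length 504 bases, 79.7% with 1 exon, 81.6% within 10 kb, 83% on the gene's strand, spread 0.429). The models this adds lie inside or across gene spans, so the higher share within 10 kb follows from the setting. Without models within 5 kb of a gene, 18.9% lay within 10 kb, a fall that the setting fixes, and 51.2% of these on the gene's strand. With the minimum on 1 replicate alone, the ranges were 0.187 to 0.229 for median level, 552 to 572 bases for length, 95.2% to 95.9% for members with a contig, and 0.436 to 0.472 for the spread. The mean level was 3.02, the mean length 8284 and the median summed exon length 562 bases. Within 5 kb and 50 kb lay 29% and 77.6%. Contigs touched 96.8%, and 85.6% had at least 50% of their length in them. A junction of 5 reads in each replicate was met by 20.8%. With pseudocounts of 0.01 and 1 the spread was 0.484 and 0.206. Joining gaps under 20, 50 and 100 bases, added after the data were seen, gave 78%, 79.5% and 80.9% with 1 exon and 82.1%, 87.8% and 88% of multi-exon members with a junction. Causes were not tested. Intervals cover counting only and do not take in the read depth behind each RPKM.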
